A study of Mus musculus with 10 samples.

Results

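The 10 microarrays of this mouse ear series fall into 2 sets by the biological replicate number in their titles: 6 arrays numbered 1 to 3 (3 mutant, 3 control) and 4 arrays numbered 4 and 5 (2 mutant, 2 control). The 2 sets were chosen by the measured signals of Fos, Fosb and Egr1, which part them, and all 10 of the 10 arrays of the series are used. The set difference of every gene comes from the same contrast as those 3 genes, so it is a description throughout and no test of it supports anything. The labels do not say what a replicate number shares, whether a litter, a dissection or a scan. The genotype comparison within the set difference was not used in choosing the sets and was tested.

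Each array measured RNA from 1 embryo at embryonic day 12.5, with the tissue of both ears combined, on Affymetrix Mouse Gene ST 1.0 arrays. The dissected piece held the otic vesicle, from which the inner ear epithelium develops, and its surrounding periotic mesenchyme. The 5 mutants were T-Cre conditional Tbx1 knockouts, which the series calls Mest-KO, and the 5 controls were T-Cre conditional Tbx1 heterozygotes. Every embryo of both groups therefore carried the T-Cre transgene, a recombinase driven by T (Brachyury) in early mesoderm. Each had lost at least 1 working Tbx1 copy there, so the series holds no embryo with wild-type mesoderm. The otic epithelium of a mutant is outside the reach of such a recombinase, and the dissected tissue held epithelium and mesenchyme together. In such bulk tissue, fewer cells of a type and less RNA per cell cannot be told apart.

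The signal of Tbx1, the T-box factor that was deleted, checked the genotype labels in both sets. On the arrays numbered 1 to 3 it was 8.40, 7.96 and 7.58 on the log2 scale in the mutants and 8.89, 9.01 and 8.84 in the controls. On those numbered 4 and 5 it was 7.63 and 7.58 in the mutants and 8.23 and 8.59 in the controls. All mutants of a set thus lay below all controls of that set. The marker genes of the dissected tissue lay above the background level of 5.43 on every array, from the otic genes Pax2 (lowest 6.48), Hmx3, Sox10, Epcam, Dlx5 and Oc90 to the mesenchymal genes Pou3f4, Tbx18, Foxc1, Prrx1 and Twist1 (lowest 10.92). The background level is the 95th percentile of 1205 olfactory and vomeronasal receptor probe sets, and 14545 of 19938 genes had a mean above it. Sex-linked genes showed 2 males among the 6 arrays numbered 1 to 3 (mutant 1 and control 1) and 1 male among the other 4 (control 5). In a principal component analysis of the values centred on each genotype, the first component held 36.7% of the variance, and 54.0% of it lay between the sets. Mutant 5 stood apart from the other arrays on that component, at -29.7 against -10.6 to 12.4, so the 54.0% rests in part on this array. Mutant 4, at 1.65, lay inside the range of the arrays numbered 1 to 3, -0.52 to 12.4, so the sets overlapped there. The component is not given without mutant 5. Gene and list results that rest on mutant 5 are given with and without it.

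Immediate early genes are transcribed within minutes of a stimulus from transcription factors already in the cell, without new protein synthesis. Many of them encode transcription factors of the AP-1, EGR and NR4A families, and others encode the phosphatases and RNA-binding proteins that end the response. CREB, which binds the cAMP response element, and SRF, which binds the CArG box, are the factors best known to drive them. The developing ear at this stage also borders the hindbrain, whose early neurons express LIM homeobox factors, transmitter enzymes and adhesion proteins that the otic mesenchyme has at low level or not at all.

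A gene was called separated where all 6 arrays numbered 1 to 3 lay on one side of all 4 arrays numbered 4 and 5 and the genotype-adjusted difference was at least 0.5 on the log2 scale, or 1.41-fold. Of 19938 genes, 21 were separated and higher on the arrays numbered 1 to 3 (0.105%) and 53 were separated and lower (0.266%), 74 in all (0.371%). The 21 higher genes comprised 12 early response genes, 4 chemokine and immune cell genes, 2 small nuclear RNAs, 2 splicing kinases and Tceanc2, a gene with a transcription elongation factor domain. The 53 lower genes were of mixed function, and many of them are known from neurons, including most of the largest differences. These functional groups were drawn up after the values were seen. Without any size, 332 genes lay wholly higher (1.67%) and 212 wholly lower (1.06%). The linear model limma gave 45 of 21789 probe sets at an adjusted p under 0.05 (0.207%), 21 higher and 24 lower, a count used here only to set the scale. Leaving out an array eases the demand for no overlap: the higher count was 36 without mutant 4 and 34 without control 5, and the lower count was 91 without mutant 3, 99 without mutant 4 and 119 without control 5. The limma count was 17, 20, 20 and 16 without mutant 1, mutant 2, control 1 and control 4, 29 without control 3 and 131 without mutant 4.

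The 3 genes that chose the sets had the largest differences of the 21 higher genes. Fos, a subunit of AP-1, had log2 signals of 8.82 to 9.08 (median 8.99) on the 6 arrays numbered 1 to 3, against 5.91 in mutant 4, 5.49 in mutant 5, 5.61 in control 4 and 5.49 in control 5. Its difference was 3.35 ± 0.09 (SE), a 10.2-fold higher signal. Fosb, a second AP-1 subunit, differed by 3.01 ± 0.13 and Egr1, a zinc finger factor, by 2.48 ± 0.13. Fosb lay between 8.80 and 9.57 on the first set and between 5.96 and 6.24 on the second, so in neither gene did an array of either genotype lie in between.

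The RefSeq promoter windows of the higher genes were read for motifs of the factors named above. Windows of the 250 bases before the start were searched on both strands for the half-site of the cAMP response element (TGACG), its full palindrome (TGACGTCA, which contains the half-site on each strand), the AP-1 motif (TGANTCA) and the CArG box. The 16 of the 21 higher genes that had a window had 20 of them, and the half-site was in 50% of these. By gene it was found for 8 of the 16, and for 5347 of all 27025 genes with a window. It was in 17.8% of all 32851 windows, in 21.4% of those of the measured genes and in 17% of the 53 windows of 44 lower genes. The CArG box was in 25% of the windows of the higher genes, in 1.47% of all windows and in 0% of those of the lower genes. Those 5 windows belong to 2 of the 16 genes, Zfp36 with 1 and Egr2 with 4 that lie close together, 3 of them overlapping almost wholly. The windows of Jun and Socs3 hold none of the 4 motifs. The AP-1 motif was in 0% of the windows of the higher genes and in 6.75% of all windows. The full element was in 10% of the windows of the higher genes (2 of 20). It was in 1.55% of all windows, in 2.02% of those of the measured genes and in 1.89% of those of the lower genes. Printed here are Fos as the gene of the largest difference, Nr4a1, Dusp1 and Zfp36 as separated genes of 3 different functions beyond those that chose the sets, Egr2 for its CArG box beside half-sites, and Clk4 as a gene outside the classical group whose window holds the full element. They are written 5′ to 3′ on the gene's strand, from build GRCm38.p6, and capitals mark the half-site, the full element or the CArG box.
Fos, chr12:85473640-85473889, plus strand: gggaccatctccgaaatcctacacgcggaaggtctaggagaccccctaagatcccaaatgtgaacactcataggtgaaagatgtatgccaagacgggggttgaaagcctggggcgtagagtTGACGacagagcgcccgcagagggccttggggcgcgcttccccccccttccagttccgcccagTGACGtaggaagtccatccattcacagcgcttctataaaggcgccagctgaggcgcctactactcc
Nr4a1, chr15:101266596-101266845, plus strand: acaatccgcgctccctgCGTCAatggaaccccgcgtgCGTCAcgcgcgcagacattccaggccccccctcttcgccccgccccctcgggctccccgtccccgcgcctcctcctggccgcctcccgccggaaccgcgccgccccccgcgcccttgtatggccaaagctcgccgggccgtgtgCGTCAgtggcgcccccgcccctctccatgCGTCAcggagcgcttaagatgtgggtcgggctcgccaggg
Dusp1, chr17:26508473-26508722, minus strand: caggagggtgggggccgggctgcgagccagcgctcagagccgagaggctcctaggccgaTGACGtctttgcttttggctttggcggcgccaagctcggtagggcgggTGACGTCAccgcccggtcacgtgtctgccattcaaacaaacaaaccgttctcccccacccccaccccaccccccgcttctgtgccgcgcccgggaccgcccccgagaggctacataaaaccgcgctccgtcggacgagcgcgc
Zfp36, chr7:28379229-28379478, minus strand: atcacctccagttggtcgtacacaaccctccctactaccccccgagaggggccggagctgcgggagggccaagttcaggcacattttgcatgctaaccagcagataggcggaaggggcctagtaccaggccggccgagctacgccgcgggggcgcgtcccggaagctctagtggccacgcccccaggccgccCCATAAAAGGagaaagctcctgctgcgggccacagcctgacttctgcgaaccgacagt
Egr2, chr10:67537619-67537868, plus strand: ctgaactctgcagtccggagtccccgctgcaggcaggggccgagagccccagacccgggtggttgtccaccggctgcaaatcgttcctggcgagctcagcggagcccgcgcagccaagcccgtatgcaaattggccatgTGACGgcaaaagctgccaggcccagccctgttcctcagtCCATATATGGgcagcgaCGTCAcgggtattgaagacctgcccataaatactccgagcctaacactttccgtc
Clk4, chr11:51262864-51263113, plus strand: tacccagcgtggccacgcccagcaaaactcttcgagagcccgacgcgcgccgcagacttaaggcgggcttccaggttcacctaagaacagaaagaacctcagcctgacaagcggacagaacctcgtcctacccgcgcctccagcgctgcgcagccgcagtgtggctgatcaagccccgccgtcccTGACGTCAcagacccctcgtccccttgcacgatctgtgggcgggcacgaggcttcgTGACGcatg
A match is a description of these letters and was not tested as a binding site. Bases further upstream than these 250 were not searched, so a motif missing from a window may lie outside it.

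Among the transcription factors beyond those 3, Nr4a1, an orphan nuclear receptor, showed the largest difference. Its log2 signal was 9.10 to 9.78 (median 9.24) on the arrays numbered 1 to 3, against 7.39, 7.32, 7.56 and 7.37 in mutant 4, mutant 5, control 4 and control 5. The sets lay 1.97 ± 0.14 (SE) apart, a 3.91-fold difference, with 2.04 in the mutants and 1.89 in the controls. Its promoter window above carries 4 half-sites. Nr4a2 and Nr4a3, its 2 relatives, differed by only -0.05 and 0.08, so the 3 family members differed unequally.

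The AP-1 and ATF factors followed with smaller differences from higher levels. Jun, the main partner of FOS in AP-1, lay between 10.13 and 10.41 (median 10.18) on the arrays numbered 1 to 3 and at 9.47, 9.20, 9.33 and 9.29 on the others, a difference of 0.89 ± 0.07 with no overlap. Atf3, a stress-induced bZIP repressor, ranged from 6.86 to 7.24 (median 7.11) against 6.18, 5.98, 6.34 and 6.32, a difference of 0.87 ± 0.10. The other family members had smaller differences: Junb 0.50 with overlapping sets, Jund 0.11, Fosl1 0.05 and Fosl2 0.13. Maff, a small MAF factor, lay just outside the size required, at 0.49 with no overlap.

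Among the zinc finger and other nuclear early genes, Egr2 and Ier2 were separated. Egr2, which also patterns the hindbrain and acts in Schwann cells, lay between 6.80 and 7.23 (median 6.94) against 5.95, 6.17, 6.30 and 6.17, a difference of 0.85 ± 0.10. Egr3 and Egr4 differed by 0.17 and 0.15 with overlapping sets. Ier2, a short nuclear protein of the early response, lay between 8.36 and 8.78 (median 8.46) against 7.56, 7.17, 7.52 and 7.73, a difference of 1.00 ± 0.10. Every array numbered 1 to 3 had a higher Ier2 signal than any array of the other set, by at least 0.5 log2.

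Feedback genes of the response were also separated. Dusp1, a phosphatase that switches off MAP kinases, lay between 9.51 and 9.76 (median 9.69) against 8.56, 8.91, 8.55 and 8.49, a difference of 1.03 ± 0.09. Zfp36, an RNA-binding protein that destabilises AU-rich messages, lay between 7.47 and 7.97 (median 7.71) against 6.80, 6.57, 6.68 and 6.79, a difference of 1.01 ± 0.09. Socs3, an inhibitor of cytokine receptor signalling, lay between 7.43 and 8.16 (median 7.73) against 6.80, 6.87, 6.88 and 7.04, a difference of 0.86 ± 0.12. These correspond to a 2.05-fold, a 2.01-fold and a 1.81-fold higher signal, with no array of either set in the range of the other. The paralogues Zfp36l1 (0.21) and Zfp36l2 (0.15) and the phosphatase Dusp6 (0.43, no overlap) stood below the required size, and Dusp4, a further MAP kinase phosphatase, was lower at -0.38 with overlapping sets.

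Ccn1 (Cyr61), a secreted matricellular protein and a target of YAP and SRF, was separated as well. It lay between 10.09 and 10.45 (median 10.30) against 9.32, 8.68, 9.16 and 8.77, a difference of 1.33 ± 0.12. No other gene of the 22 on the list of SRF/MRTF and YAP responsive genes was separated, and the median difference of that list was -0.001, against 0.03 over all genes. It was -0.08 without mutant 5 and 0.08 without mutant 4.

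**Figure D1:**
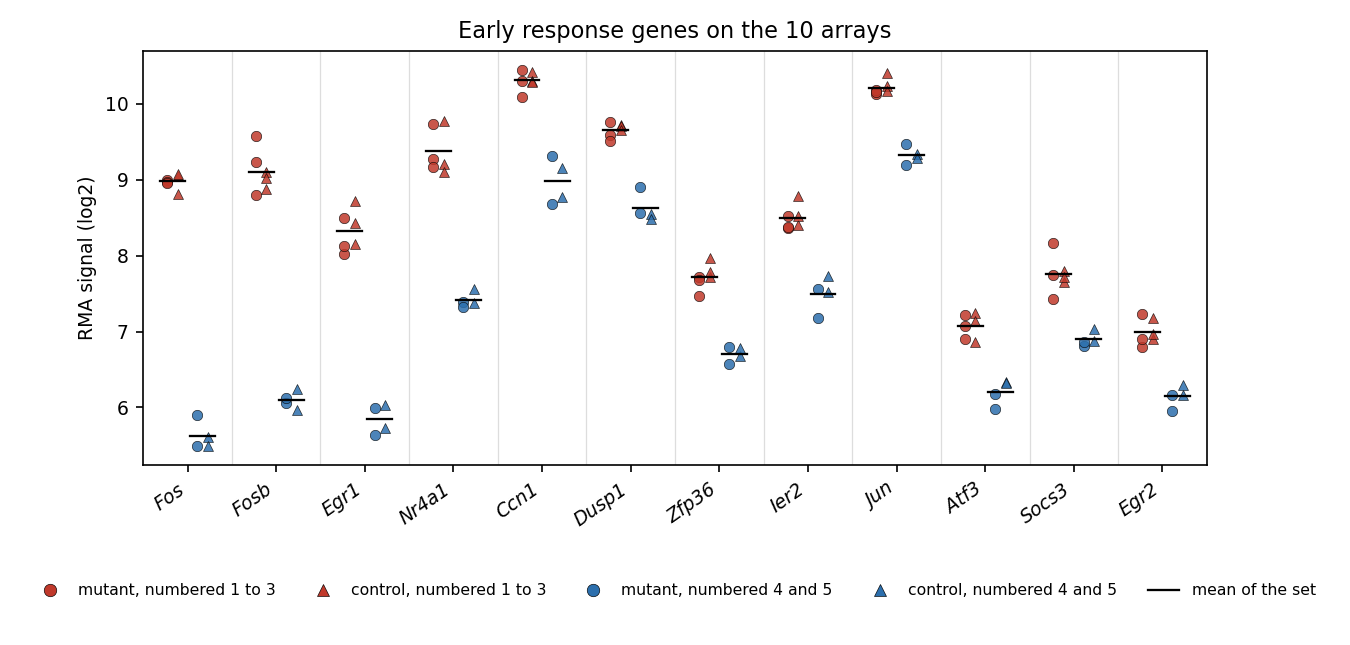
RMA signal on the log2 scale (vertical axis) of the 12 separated early response genes on each of the 10 arrays. Red symbols are arrays numbered 1 to 3 and blue symbols those numbered 4 and 5, circles are mutants and triangles controls, and a black line is the mean of a set. In all 12 genes the 6 red symbols lie above the 4 blue ones, by most in Fos, Fosb and Egr1, and circles and triangles of a set lie at like heights.

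Seen over whole lists, few early genes carried the difference. Of the 32 immediate early transcription factors on the list, 8 were separated and higher, 0 lower, and 29 had a difference above 0. The 8 include the 3 genes that chose the sets. Over all genes 0.105% were separated and higher, and 12115 of 19938 had a difference above 0. The median of the 32 factors was 0.19. Of the 36 early response signalling and mRNA decay genes, 3 were separated and higher, 0 lower, with a median of 0.11. Myc, the growth regulator, and Npas4, an early factor of neurons, differed by -0.10 and 0.08. Averaged over the 8 separated transcription factors, the signal above the mean of the arrays numbered 4 and 5 was 1.97, 1.72 and 1.66 in mutants 1 to 3 and 1.92, 1.75 and 1.79 in controls 1 to 3, and lay between -0.13 and 0.10 on the other 4 arrays. The gap between the sets in this average follows from the choice of the 8 genes and is given only as a level.

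The response lists given in this paragraph held no separated member. Over all genes 0.371% were separated, so lists of this size would hold few or none. Atf3, a stress-induced gene that was separated, is not on these lists. Against 0.03 over all genes, the median was 0.09 for 19 heat shock proteins and chaperones, 0.13 for 28 genes of the unfolded protein and integrated stress response, 0.12 for 29 hypoxia inducible and glycolytic genes, 0.03 for 17 p53 targets and 0.10 for 14 glucocorticoid responsive genes. The medians of the unfolded protein and hypoxia lists were as large as that of the early response signalling list. Without mutant 5 the p53 median was -0.01. The 16 interferon stimulated genes had a median of 0.02 (0.008 without control 4 and 0.05 without control 2), and the 17 circadian clock genes one of 0.08 (0.05 without control 1). Vegfa, the blood vessel growth factor that hypoxia induces, had no overlap but differed by 0.46. Cyp26a1, an enzyme that breaks down retinoic acid, had the same difference of 0.46 with no overlap.

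**Figure D2:**
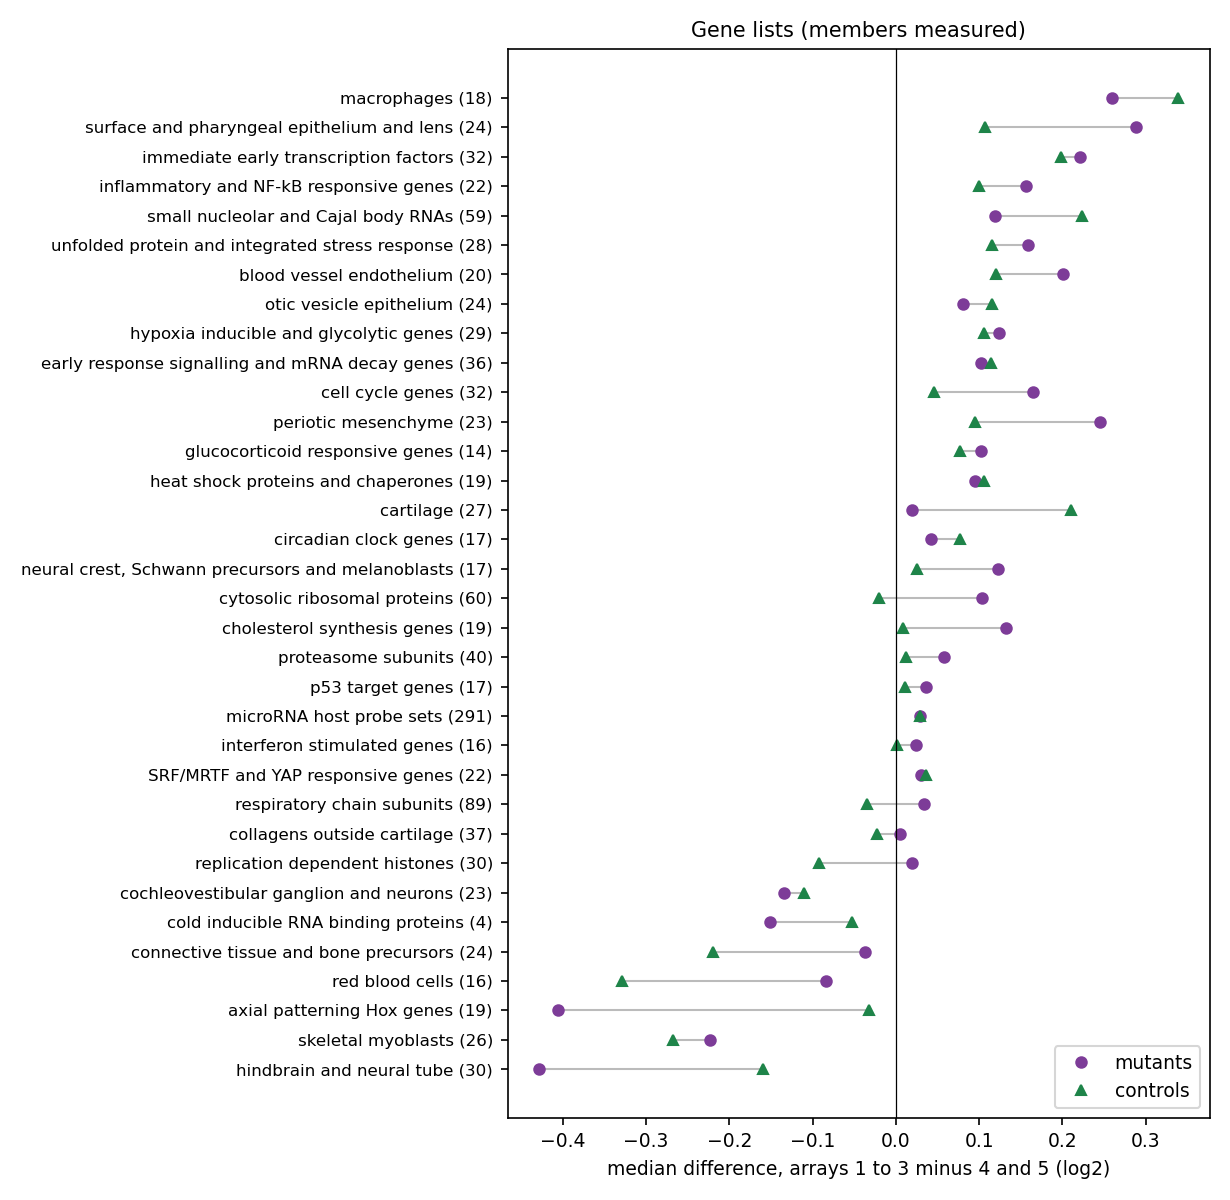
Median set difference on the log2 scale (horizontal axis) of the members of each gene list in mutants (purple circles) and controls (green triangles), with the number of members measured in brackets. Macrophage, epithelial and immediate early lists lie to the right, hindbrain, myoblast and Hox lists to the left, and the 2 genotypes lie far apart in the Hox list, at -0.41 and -0.03.

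Chemokine and immune cell genes were the second group among the higher genes. Ccl3, a chemokine made by activated macrophages, lay between 6.54 and 7.45 (median 7.13) on the arrays numbered 1 to 3 and at 5.75, 5.42, 5.54 and 5.66 on the others, a difference of 1.42 ± 0.16. The signals of the second set lay near the background level of 5.43. Ms4a4a, a membrane protein of macrophages, lay between 6.29 and 6.94 (median 6.56) against 6.05, 5.28, 5.57 and 5.95, a difference of 0.87 ± 0.17. Ctss, a lysosomal protease of antigen-presenting cells, differed by 0.55 ± 0.12, close to the required size, with 0.34 in the mutants and 0.77 in the controls. Ccl19, a chemokine that attracts lymphocytes, differed by 0.77 ± 0.21 and ranged from 6.24 to 7.41 on the first set. It was read by 5 probe sets, of which 2 kept the sets apart, and the mouse genome holds near-identical copies of it, so which copy was measured is uncertain.

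Most listed macrophage genes had a small difference in the same direction. Of 18 macrophage genes, 17 had a difference above 0 and 0 were separated, with a median of 0.31 (0.26 in the mutants, 0.34 in the controls, and 0.21 without mutant 5). Mrc1, a mannose receptor, lay between 8.08 and 8.59 (median 8.37) against 8.27, 7.32, 7.72 and 7.62, so the sets overlapped through mutant 4. The defining markers Csf1r (0.29), Cx3cr1 (0.30) and C1qb (0.32) had smaller differences, and Ptprc (0.05), Tyrobp (0.02) and Spi1 (-0.08) had almost none. The mean of the list lay between 6.93 and 7.13 on the 6 arrays numbered 1 to 3 and was 6.97, 6.50, 6.74 and 6.67 on the others. Its part in the differences of Ccl3, Ms4a4a and Ctss was not tested. Of 22 inflammatory and NF-kB responsive genes, Ccl3 was the 1 separated and the median was 0.15 (0.09 without mutant 5), with Ccl4 at 0.17, Tnf at 0.13 and Nfkbia at 0.17.

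The small RNAs and splicing kinases made up the rest of the higher genes. Scarna17, a Cajal body RNA that guides the modification of spliceosomal RNA, lay between 9.21 and 10.21 (median 9.80) against 9.13, 8.73, 8.35 and 8.78, a difference of 1.06 ± 0.19. A second probe set of the array carries the same values. Snord49b, a nucleolar RNA that lies in an intron of its host gene, lay between 7.95 and 8.72 (median 8.29) against 7.94, 7.26, 7.23 and 7.55, a difference of 0.81 ± 0.17. In both RNAs mutant 4 was the highest array of its set and lay just under the lowest array of the other. Of 59 small nucleolar and Cajal body RNAs, 48 had a difference above 0, against the 12115 of 19938 of all genes. The median was 0.15, and 0.09 without control 1.

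Clk1 and Clk4, kinases that phosphorylate SR proteins and retain introns in their own messages, were separated by little more than the required size. Clk1 lay between 10.22 and 10.92 (median 10.65) against 9.90 to 10.15 on the other 4, a difference of 0.56 ± 0.11. Clk4 lay between 8.30 and 8.92 (median 8.69) against 8.28, 8.30, 8.01 and 8.04, a difference of 0.51 ± 0.10, with the sets all but touching. Clk3 differed by 0.07, and Ccnl1, a cyclin of the splicing machinery, by 0.49 with no overlap. Tceanc2 lay between 8.44 and 8.88 (median 8.62) against at most 8.11 on the other 4, a difference of 0.57 ± 0.08. Clk4 and Ctss were thus the members just inside the size required, and Ccnl1 and Maff the genes just outside it.

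The 53 lower genes had a median difference of -0.74, with 13 of them at 1 log2 or more. Only 5 of the 53 are on any of the gene lists. Grouped by function after the values were seen, 5 were neuronal transcription factors and 5 were transmitters or their receptors and synthesising enzymes. Another 10 served adhesion, guidance and synapses, 2 were channels and 4 belonged to the neuronal cytoskeleton or to RNA binding. The remaining genes were put in none of these groups, and some of them are also neuronal, Lamp5 and Phyhipl among them. Neurod6, a bHLH factor of differentiating neurons, had the largest difference. It lay between 4.08 and 4.48 (median 4.26) on the arrays numbered 1 to 3, below background on all 6, and at 6.21 in mutant 4, 6.95 in mutant 5, 5.71 in control 4 and 4.59 in control 5. The difference was -1.62 ± 0.26, with control 5 also below background.

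LIM homeobox factors of spinal and hindbrain interneurons followed. Lhx1 lay between 5.27 and 5.78 (median 5.58) against 6.71, 8.04, 6.90 and 6.15, a difference of -1.36 ± 0.23. Lhx5 lay between 5.46 and 6.04 (median 5.82) against 6.82, 8.24, 7.09 and 6.06, a difference of -1.30 ± 0.29. Skor1, a corepressor of dorsal interneurons, lay between 5.56 and 5.97 (median 5.67) against 6.59, 7.32, 6.91 and 6.22, a difference of -1.04 ± 0.16. In each of these 3 genes mutant 5 was the highest and control 5 the lowest of the second set. Scrt1, a neuronal repressor of the Snail family, differed by -0.87.

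Genes of transmitters were again highest in mutant 5. Gad2, which makes GABA, lay between 5.32 and 5.73 (median 5.57) against 6.42, 7.82, 6.38 and 5.82, a difference of -1.06 ± 0.25. Sst, the peptide somatostatin, lay between 6.84 and 7.49 (median 7.14) against 8.30, 9.25, 8.27 and 7.65, a difference of -1.19 ± 0.19. Its promoter was the 1 lower gene window with the full cAMP response element. That is 1.89% of the lower windows, near the 1.55% of all windows. Glra2, a glycine receptor subunit, and Grik3, a kainate receptor subunit, differed by -1.16 and -0.74, and by -0.64 and -0.46 without mutant 5. Glra2 was below background on the 9 arrays other than mutant 5, where it was 6.45.

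Neuronal proteins of the cytoskeleton, of membranes and of RNA processing were lower as well. Map2, a microtubule protein of dendrites, lay between 8.11 and 8.88 (median 8.58) against 9.26, 10.73, 9.39 and 8.96, a difference of -1.04 ± 0.23. Nova1, a splicing regulator of neurons, lay between 7.30 and 7.96 (median 7.49) against 8.42, 10.24, 8.34 and 8.23, a difference of -1.24 ± 0.26, and its second probe set by -1.49. Lamp5, a membrane protein of neurons, lay between 5.55 and 6.31 (median 5.93) against 6.61, 8.50, 6.62 and 6.61, a difference of -1.19 ± 0.28. In Nova1 and Lamp5 mutant 5 stood well above the other 3 arrays of its set, which lay close together. Phyhipl, a neuronal protein of little known function, differed by -1.14 ± 0.29.

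Of the 10 adhesion and guidance genes, 4 still differed by 0.5 or more without mutant 5. Reln, a secreted glycoprotein that guides neuronal migration, lay between 6.58 and 7.06 (median 6.69) against 7.73, 7.87, 7.48 and 7.63, a difference of -0.94 ± 0.10, and -0.90 without mutant 5. Erbb4, a receptor for neuregulin, is not one of the 10. It lay between 6.34 and 7.05 (median 6.63) against 7.13 to 8.32 on the other 4, a difference of -0.95 ± 0.15. Lrrc4c, a netrin-G ligand at synapses, differed by -0.76 (-0.66 without mutant 5) and Celsr2, an atypical cadherin, by -0.82 (-0.52). Nxph1 differed by -0.85 (-0.54), but its second probe set differed by 0.04 with overlapping sets. Slit1, a repellent guidance ligand, differed by -0.70 (-0.38) and Nlgn1, a neuroligin, by -0.56 (-0.39). Fat3, an atypical cadherin with many probe sets, differed by -0.51, and 10 of its 14 other probe sets also kept the sets apart.

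**Figure D3:**
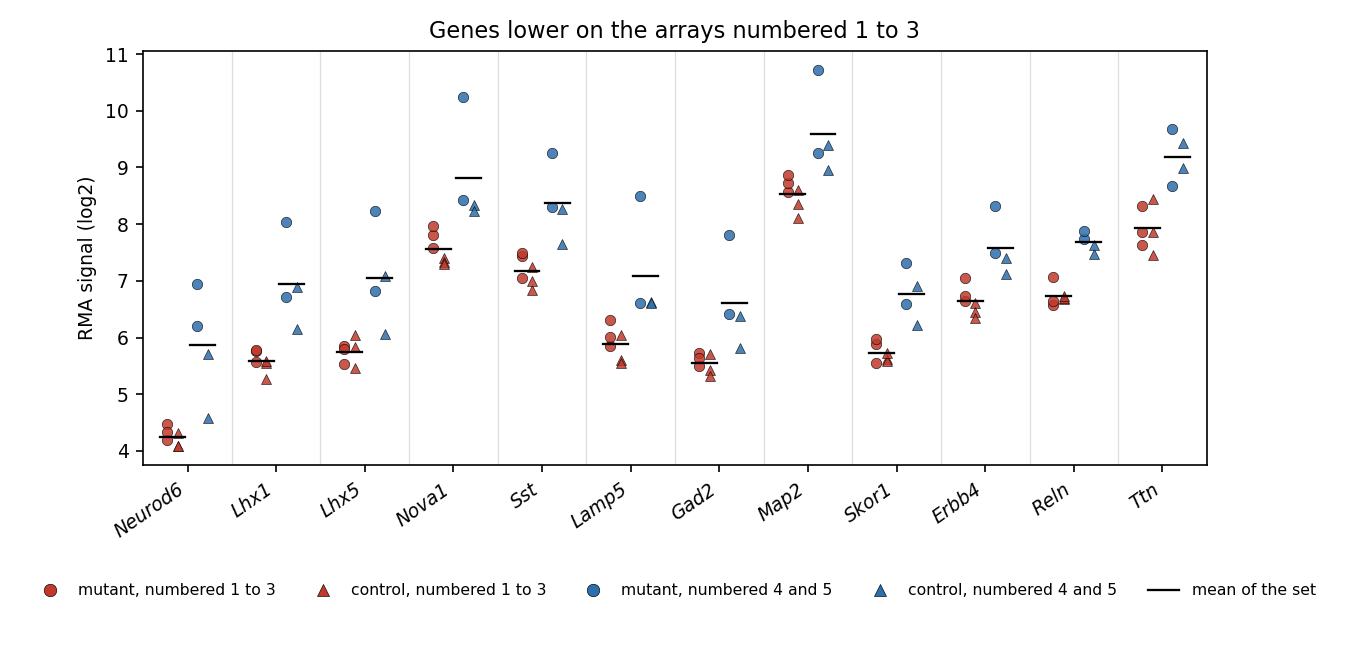
RMA signal on the log2 scale (vertical axis) of 12 separated genes that were lower on the arrays numbered 1 to 3, with the same symbols as for the early genes. The 6 red symbols lie below the 4 blue ones in every gene, and 1 blue circle, mutant 5, stands far above the rest in Lhx1, Lhx5, Nova1, Lamp5, Gad2 and Map2 but not in Reln or Ttn.

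Mutant 5 stood highest in most of the lower genes. It had the highest signal of all 10 arrays in 46 of the 53 lower genes, mutant 4 in 5 and control 5 in 2. Over the 53 genes its median excess over the mean of the arrays numbered 1 to 3 was 1.49, against 0.55 for mutant 4, 0.58 for control 4 and 0.36 for control 5. Without mutant 5, 37 genes were separated and lower, of which 28 were among the 53, and 24 were separated and higher, of which 21 were the original 21. The difference without it was -0.82 for Nova1, -0.76 for Lamp5, -0.69 for Gad2 and -0.72 for Phyhipl, more than 1.5 times smaller than with it. It was -0.71 for Map2, -1.33 for Neurod6, -1.03 for Lhx1, -0.91 for Lhx5 and -0.95 for Sst.

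The neural lists also moved with mutant 5. Of 30 hindbrain and neural tube genes, 26 had a difference below 0, 3 were separated and lower, and the median was -0.34 (-0.43 in the mutants, -0.16 in the controls). It was -0.12 without mutant 5. The 23 genes of the cochleovestibular ganglion and of neurons had a median of -0.11, which was -0.002 without mutant 5 and -0.23 without mutant 4, with 0 separated. Of these 23 genes 14 were below 0 and 9 above. Gpm6a had the largest difference of the list, -2.01 (-1.41 without mutant 5), beyond that of any separated lower gene. Syt1 followed at -0.72 (-0.33 without mutant 5). The sets overlapped in both genes. Tubb3, a tubulin of all neurons, differed by -0.41 (-0.13 without mutant 5) and Stmn2, a microtubule regulator of growing axons, by -0.31 (-0.02), both with overlapping sets. Neurod1, a factor of neuroblasts, and Isl1, a LIM factor of sensory and motor neurons, lay the other way at 0.29 and 0.44. The mean of the ganglion and neuron list was 7.80 to 8.67 on the arrays numbered 1 to 3 and 8.30, 9.32, 8.41 and 8.49 on mutant 4, mutant 5, control 4 and control 5, so those sets overlapped. How much neural tissue each dissection held, and its part in the lower genes, was not tested.

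Outside the neural genes, the lower group held members of several other systems. Ttn, the giant spring protein of the sarcomere, lay between 7.45 and 8.44 (median 7.87) against 9.68, 8.67, 9.43 and 8.99, a difference of -1.27 ± 0.22. It was -1.46 without mutant 5, and here mutant 4 was the highest array. Of 26 skeletal myoblast genes 23 had a difference below 0 and Ttn was the 1 separated, with a median of -0.26 (-0.40 without mutant 5 and -0.10 without mutant 4). Myog, the regulator of muscle differentiation, differed by -0.08, and Myh3, embryonic myosin, by -0.40 with overlapping sets.

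Rny1, a small cytoplasmic RNA of the Ro particle, lay between 4.84 and 6.03 (median 5.54) against 6.73, 7.15, 6.72 and 6.92, a difference of -1.40 ± 0.24, opposite in direction to the 2 small nuclear RNAs above. Tent5c, a poly(A) polymerase of blood and plasma cells, lay between 6.84 and 7.65 (median 7.31) against 8.06, 8.17, 8.13 and 8.64, a difference of -0.97 ± 0.12. Xk, a membrane protein of red cells, differed by -0.66 ± 0.14, with control 5 the highest at 8.07. The list of 16 red blood cell genes had a median of -0.24, with 12 below 0 and 0 separated. It was -0.36 without control 4 and -0.07 without control 5. Hsd3b6, a steroid dehydrogenase of a gene family with near-identical copies, differed by -0.97 ± 0.19, and which copy was measured is uncertain. Mir382, the 1 of 291 microRNA probe sets that was separated, differed by -0.66 ± 0.15, and its signal was above background on 1 array alone, mutant 4. The lower genes nearest the required size included Fat3 at -0.51, and Dll1, a Notch ligand, lay just outside it with no overlap.

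That a separated gene has the same direction in both genotypes follows from the demand that no array overlap, so only sizes were compared. Sizes are not free of that demand either. A gene that differs little in either genotype is less likely to meet it. Like sizes among the separated genes, higher or lower, are therefore a description and no test of agreement between the genotypes. Of the 21 higher genes 18 differed by 0.5 or more in both genotypes, and the larger difference was in the mutants for 10 of the 21. Fos differed by 3.28 in the mutants and 3.43 in the controls, Ccn1 by 1.28 and 1.37, Dusp1 by 0.89 and 1.18, Zfp36 by 0.94 and 1.08, and Ccl3 by 1.47 and 1.37. The genotype-by-set interaction, mutant minus control, was 0.14 for Nr4a1 (95% interval -0.47 to 0.76), -0.16 for Fos (-0.56 to 0.25) and -0.29 for Dusp1 (-0.64 to 0.06). The largest among the 21 genes was -0.47 for Scarna17 (-1.27 to 0.32), and all 21 intervals included 0. Differences between the genotypes as large as these bounds are thus not excluded.

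Of the 53 lower genes 31 differed by 0.5 or more in both genotypes, and 49 of the 53 had the larger difference in the mutants, whose second set includes mutant 5. Neurod6 differed by -2.25 in the mutants and -0.99 in the controls, an interaction of -1.26 (95% interval -2.13 to -0.38). Lhx5 differed by -1.80 and -0.80 (interval of the interaction -2.15 to 0.14), and Reln by -1.04 and -0.85 (interaction -0.19, interval -0.62 to 0.24). The interval excluded 0 for 3 of the 53. After adjustment over all probe sets none of them passed.

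Across the transcriptome, limma called 0 of 21789 probe sets for the interaction at an adjusted p under 0.05 (0%), with 570 at an unadjusted p under 0.05 (2.62%). Without mutant 4 it called 30, a fit in which the remaining mutant of the second set is assumed to vary like the other groups, and with any other single array left out it called 0. The smallest p was that of Hoxb5, a factor of axial patterning, with an interaction of -1.31 (95% interval -1.83 to -0.78, limma adjusted p = 1.00). Its log2 signal was 7.36, 7.46 and 6.88 in mutants 1 to 3 and 8.33 and 8.36 in mutants 4 and 5, against 7.99, 7.62 and 7.84 in controls 1 to 3 and 7.75 and 7.49 in controls 4 and 5. Dlx1, a homeobox factor of the branchial arches, went the other way, with 1.04 in the mutants and -0.01 in the controls (interaction 1.06, interval 0.59 to 1.52, limma adjusted p = 1.00). The 19 axial patterning Hox genes had a median difference of -0.41 in the mutants, against -0.03 in the controls, and 0 were separated over both genotypes. Over both genotypes the median was -0.24, and -0.13 without mutant 4.

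Counted within each genotype, which share no embryo, 53 genes were separated and higher in the controls (0.266%) and 97 lower (0.487%), and 103 were higher in the mutants (0.517%) and 224 lower (1.12%). With 3 arrays against 2 there is more room for no overlap than with 6 against 4. Of the higher genes 22 were on both lists, 41.5% of the control list and 21.4% of the mutant list. Of the lower genes 45 were on both, 46.4% of the control list and 20.1% of the mutant list. Of the 53 genes higher in the controls 50 were also above 0 in the mutants (94.3%), and of the 97 lower ones 87 were below 0 (89.7%). In the other direction, 79 of 103 (76.7%) and 208 of 224 (92.9%) had the same direction in the controls. Over all 19938 genes 62.1% had the same direction in both genotypes. The 2 sets of differences correlated at r = 0.56 across the 14545 genes above background, which are not independent points and share the normalisation of the 10 arrays.

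**Figure D4:**
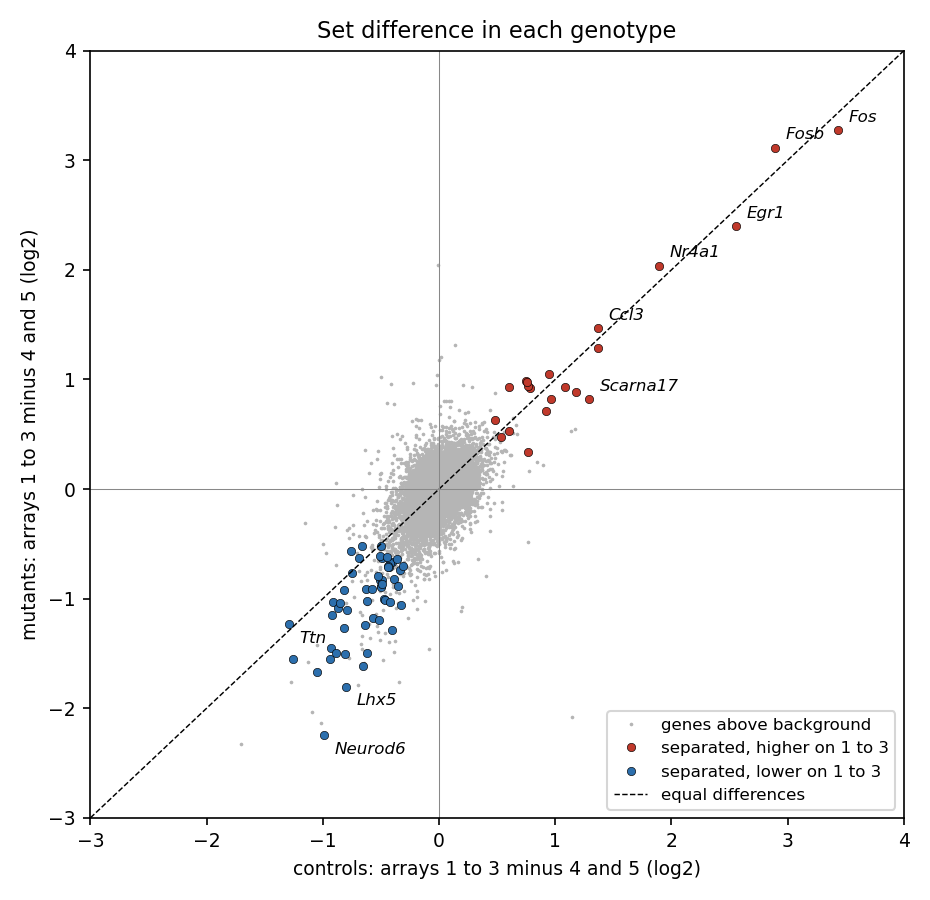
Set difference on the log2 scale in the controls (horizontal axis) and in the mutants (vertical axis) for each gene above background, with the separated genes in red (higher) and blue (lower) and a dashed line where the genotypes are equal. The red points lie along the dashed line up to Fos at 3.43 and 3.28, and 49 of the 53 lower genes lie below it, Neurod6 at -0.99 and -2.25.

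The separated genes also differed in genomic length. They come from the contrast that chose the sets, and the 21 higher genes include Fos, Fosb and Egr1, so their lengths are a description. The median length from start to end of the gene was 3.75 kb for the 21 higher genes, 59.5 kb for the 53 lower genes and 22.0 kb for the genes above background. Over all genes above background with a length, the median difference was 0.04 for 2180 genes under 5 kb, 0.02 for 3676 genes of 20 to 50 kb and -0.08 for 822 genes over 200 kb. The mutants went from 0.04 to -0.08 and the controls from 0.03 to -0.08 over the same classes. The 311 genes that lay wholly higher by less than 0.5 had a median length of 13.04 kb, and the 159 that lay wholly lower by less than 0.5 one of 64.4 kb. The 23 listed genes of neurons had a median length of 17.5 kb and the 30 of the hindbrain and neural tube one of 7.03 kb. Of these, 0 and 3 were among the 53 lower genes, so the lengths of these lists do not describe the lower genes. The part of gene length in the set difference was not tested.

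**Figure D5:**
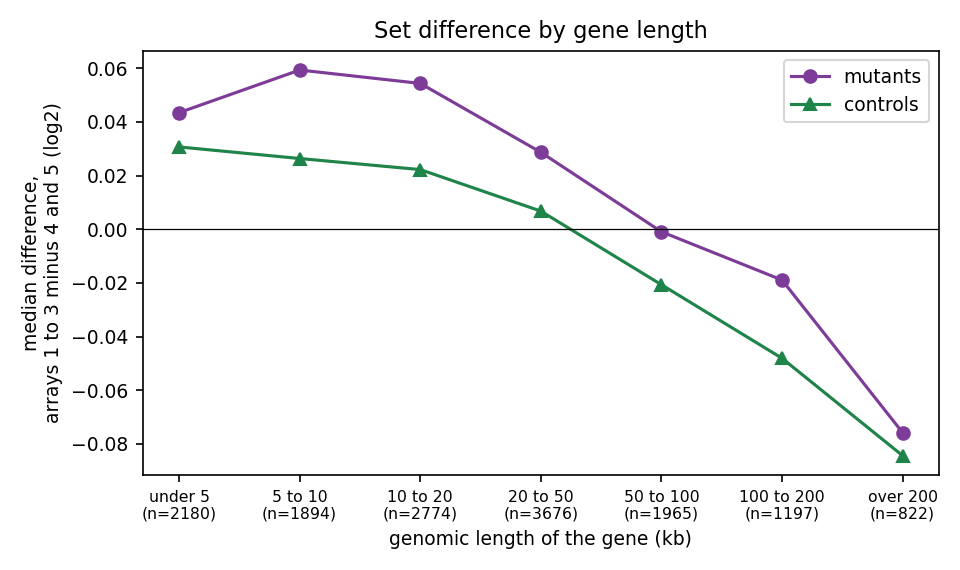
Median set difference on the log2 scale (vertical axis) of the genes above background in classes of genomic length in kb (horizontal axis, with the number of genes), for mutants (purple circles) and controls (green triangles). Both lines are above 0 for the shorter genes and reach -0.08 in the 822 genes over 200 kb.

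The lists of ear, cartilage, vessel and surface tissues held no separated member. With 0.371% of all genes separated, lists of this size would hold few or none. The 24 otic vesicle genes had a median of 0.12, with 15 above 0 and 9 below. The largest differences of the otic list were Otx2 at -1.24 (-0.91 without mutant 5) and Pax8 at -0.51 (-0.35), both with overlapping sets. The 23 periotic mesenchyme genes had a median of 0.10, which was 0.02 without mutant 5. The 27 cartilage genes had a median of 0.08, which was 0.01 without mutant 5, -0.008 without control 5 and 0.22 without mutant 4. The 60 cytosolic ribosomal proteins had a median of 0.05, which was 0.004 without mutant 5. The 20 endothelial genes all had a difference above 0, with a median of 0.13. The 24 surface epithelium, pharyngeal and lens genes had a median of 0.22, which was 0.13 without mutant 5. Mutant 1 stood apart in this list: Cryaa, a lens crystallin, was at 11.19 there and at 5.54 to 5.97 on the other 9 arrays. Olfactory and vomeronasal receptor genes, which this tissue is not known to express, had a median of 0.05 over 1190 genes.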

How the data were processed

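RNA of 10 embryos was measured on 10 arrays. The deposited values are on a log2 scale. Per the submitters' processing notes, the authors used RMA and Affymetrix Expression Console 1.1. RMA subtracts background, equalises the distributions of the arrays and combines the probes of a probe set, which can shrink differences shared by many genes. Array medians of 6.19 to 6.27 show the log2 scale. Which probe file was used is not stated in the sources used here. Precision is limited by the number of arrays. Labelling used 300 ng of total RNA, per the labels.

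Of 35557 probe sets, the platform annotation listed 23410, of which 21789 had 1 gene symbol and were used, 1621 had several and were left out, and 12147 had no listed gene. By gene id, 21698 of the 21789 were found in the RefSeq table of GRCm38.p6, which also gave gene lengths and promoter windows, and 91 kept the annotation's name. Where a gene had several probe sets, the one of highest mean signal stood for it.

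The set difference was fitted with limma 3.58.1 in R 4.3.3 (eBayes with trend) as genotype plus set, and the interaction as genotype by set, two-sided, with Benjamini-Hochberg adjustment over 21789 probe sets and a threshold of 0.05. Where nothing says that embryos of a group came from separate litters, p-values measure only the spread between these samples. The fits were tested on simulated data. Deviations from the group means correlated at -0.061, 0.166, 0.161, -0.059 and -0.059 within the pairs of equal number, 1 to 5. The deviations of a group cancel out, so the values of pairs 4 and 5 are equal by construction. In such small groups these correlations cannot show whether arrays of equal number share a litter or a dissection.

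The sets, the 36 gene lists (595 of 631 genes listed by name were measured) and the tests were chosen with earlier results of these data known. The rule for naming took Fos, Fosb and Egr1 and the 15 largest differences in each direction among separated genes above background, without predicted or clone-type names. It also took each list's separated members or else its 2 largest differences, and the 5 smallest interaction p-values. Not every list's 2 largest differences are printed. Relatives printed beside a gene, further members of the functional groups, and the groups themselves were chosen after values were seen. Alternatives were other variance moderation, normalisation, filters, probe set rules, sizes, covariates, array weights, a replicate block, each genotype alone and each array left out.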

Additional observations from a re-analysis of the deposited data

Results flagged for a closer look

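Single arrays stood apart from the rest of their set in 5 of the 134 groups of arrays checked, where chance alone marks about 5% of groups. Dusp1 was 8.91 in mutant 5, the highest of the 4 arrays numbered 4 and 5, whose other values were 8.49 to 8.56. Jun was 10.41 in control 3, the highest of the 6 arrays numbered 1 to 3. Mutant 5 was also far above the other 3 arrays of its set in Nova1, at 10.24, and in Lamp5, at 8.50. The mean of the surface and pharyngeal epithelium and lens list was 7.68 in mutant 1, above the other 5 arrays of its set.

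In 3 of the genes with the smallest interaction p, the sets did not overlap within either genotype and differed in opposite directions. With no size required, 174 genes showed this pattern, and 1097 were separated the same way in both genotypes. Of the 174, 0 differed by 0.5 or more in both. Choosing genes by a small interaction p also favours the pattern, so its presence in these 3 genes is a description. The set difference in the mutants minus that in the controls was -0.68 for Hoxd3, 0.67 for Olfr93 and 0.59 for Ccnb3. None passed limma's adjustment over all probe sets (limma adjusted p = 1.00 for each). Olfr93 and Ccnb3 lay below the background level on every array.

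Among the 12147 probe sets without a listed gene, 5 were separated and higher and 15 separated and lower on the arrays numbered 1 to 3. Among the 19938 genes these counts were 21 and 53. The largest difference of the unlisted probe sets was that of 10598023, -1.42 between means of 7.94 and 9.36. Probe sets 10347224, 10379650 and 10347220 carry identical values (-1.34), so the lower count holds the same signal more than once.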

How the results depend on the processing

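By the demand that no array overlap, none of the 74 separated genes could change direction when an array was left out. Some genes that were not separated did, among them Olfr93, Ccnb3, Pou3f4, Oc90 and Myog, and Hoxb5 was 0.19 in the controls alone against -0.46 over both genotypes. With no size required, 332 genes were higher and 212 lower, and 77.3% and 68.7% of those of the controls had the same direction in the mutants. At 1 log2 the counts were 10 and 13, with 100% for the lower genes. Array weights gave 76 set calls and a neural crest list median of 0.0338. The mutants alone gave 103 higher and 224 lower genes, 5 calls and list medians of 0.13 (cholesterol synthesis), 0.24 (periotic mesenchyme), 0.12 (neural crest), -0.41 (Hox) and 0.10 (ribosomal proteins). The controls alone gave 53 and 97 genes, 9 calls and medians of 0.0996 (inflammatory), 0.0259 (neural crest), -0.0323 (Hox) and -0.0205 (ribosomal proteins). These fits hold fewer arrays, and the cause of the other shifts was not tested.

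Leaving out each array in turn gave 20 to 36 higher and 37 to 119 lower genes, 16 to 131 set calls and 0 to 30 interaction calls. The share of control genes with the same direction in the mutants was 75.7% to 96.2% (higher) and 72.7% to 92.8% (lower). List medians ran from 0.0924 to 0.167 (inflammatory), 0.0191 to 0.167 (periotic mesenchyme), -0.00679 to 0.111 (neural crest) and 0.00379 to 0.0580 (ribosomal proteins).

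The replicate number as a random block gave 43 set calls against 45, with a correlation of 0.0102 between arrays of the same number, and as a fixed block 0 interaction calls, so it changed no call of the interaction. The set difference itself cannot be fitted with a fixed block of number. With sex as a covariate 20 of the 21 higher and 50 of the 53 lower genes remained. Depth does not apply to arrays, and signals below 5.43 are near background.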
